A study of Mus musculus with 4 samples.

Results

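Transfer RNA (tRNA) genes were examined as places where chromatin immunoprecipitation for SHP left a signal in the mouse small intestine. The set was every gene of biotype tRNA on chromosomes 1 to 19 in the RefSeq annotation of mm10, which gave 391 of 47038 genes there. A tRNA gene was called occupied where the summit of a SHP peak lay within 100 bp of either of its ends. In wild-type intestine 26 of the 391 were occupied (6.65%, 95% exact interval 4.39 to 9.59), and in SHP-knockout intestine 3 were (0.767%, 0.159 to 2.23). Of all 47038 genes, 3.46% had a wild-type summit that close and 0.0085% a knockout summit.

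SHP (small heterodimer partner, gene Nr0b2) is an orphan nuclear receptor without a DNA-binding domain. ChIP with an anti-SHP antibody was sequenced from jejunum and ileum of wild-type C57BL/6 mice and of SHP-knockout mice labelled with the same strain background. Mice aged 8 to 12 weeks had been fasted for 12 h and refed normal chow for 4 h in both groups, and each of 3 sets of immunoprecipitated and input DNA pooled 3 mice. There was 1 peak list for each genotype, 5775 peaks in wild type and 7 in knockout, with no list for each set. The lists carry different filters, named as an irreproducible discovery rate of 0.05 in wild type and as overlapping peaks in knockout. No value was therefore tested between genotypes. The design of the knockout allele is not given in the sources used here. Depth of sequencing is unknown. Peak lists hold no transcripts or reads with which the tissue or the deletion could be checked.

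A tRNA carries an amino acid to the ribosome and reads a codon through its anticodon. Its gene is short and is transcribed by RNA polymerase III from a promoter that lies inside the gene. That promoter has an A box and a B box. TFIIIC binds them and places TFIIIB just upstream of the start, and TFIIIB brings in the polymerase. Mammalian genomes hold many copies of most tRNA genes, often in clusters and often nearly identical, and the symbols used here give the amino acid letter, the anticodon and a copy number. n-TLtag1, for example, is a leucine tRNA gene with the anticodon TAG.

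Sequence was at hand for few of these genes, since it came from RefSeq promoter windows of GRCm38.p6, the assembly behind mm10. Each window runs from 250 bases before to 50 bases after the start of a protein-coding or lncRNA gene. Of the 391 tRNA genes, 10 touched such a window, and 3 of those were occupied in wild type. The genes below were taken only from those with a match to the B box letters GGTTCNANNCC, which is in capitals. Each is written on the strand that holds the match. The first and second are whole occupied genes, the third lacks its first bases, and the last pair had no summit within 100 bp.
n-TTagt9, chr7:35234770-35234843, minus strand: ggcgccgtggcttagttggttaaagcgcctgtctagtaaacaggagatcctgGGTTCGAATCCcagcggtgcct
n-TRtcg5, chr7:79466419-79466491, plus strand: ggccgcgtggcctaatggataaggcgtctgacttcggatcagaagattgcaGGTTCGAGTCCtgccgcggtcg
n-TLaag4, chr7:120917528-120917598, plus strand: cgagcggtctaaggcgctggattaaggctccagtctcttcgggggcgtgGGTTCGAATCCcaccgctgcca
n-TVcac9, chr13:23446142-23446214, minus strand: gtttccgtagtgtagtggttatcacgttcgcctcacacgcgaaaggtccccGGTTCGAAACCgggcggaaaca
n-TAagc16, chr13:21222586-21222657, plus strand: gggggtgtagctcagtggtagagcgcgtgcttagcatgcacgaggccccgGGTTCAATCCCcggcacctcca

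All 5 of these genes held the B box letters because only genes with a match were printed, so this does not compare occupied genes with others. The tRNA genes without a match in their window lay only partly inside it. In the 4 printed whole, the match began at base 51 to 53 of the gene. Searched on both strands, the same letters occurred in 261 of all 32817 windows of 300 bases (0.795%), and in 7 of the 10 windows that touched a tRNA gene. A wild-type summit lay in 20 of the 261 windows with the letters and in 5.55% of all windows.

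Neighbouring genes can share a window with a tRNA gene, as beside Polg, which encodes the mitochondrial DNA polymerase, and Polr3e, which encodes a subunit of RNA polymerase III itself. The 250 bases before the annotated start of each are printed with the tRNA gene in capitals, on the strand of the tRNA gene, to show where the summit falls.
Polg, chr7:79466274-79466523, plus strand: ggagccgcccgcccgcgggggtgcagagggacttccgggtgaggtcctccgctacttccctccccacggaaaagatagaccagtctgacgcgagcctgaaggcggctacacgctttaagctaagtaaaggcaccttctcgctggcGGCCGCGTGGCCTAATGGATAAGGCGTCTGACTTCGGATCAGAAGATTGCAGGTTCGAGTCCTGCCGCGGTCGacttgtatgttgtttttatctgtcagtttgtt
Polr3e, chr7:120917528-120917777, plus strand: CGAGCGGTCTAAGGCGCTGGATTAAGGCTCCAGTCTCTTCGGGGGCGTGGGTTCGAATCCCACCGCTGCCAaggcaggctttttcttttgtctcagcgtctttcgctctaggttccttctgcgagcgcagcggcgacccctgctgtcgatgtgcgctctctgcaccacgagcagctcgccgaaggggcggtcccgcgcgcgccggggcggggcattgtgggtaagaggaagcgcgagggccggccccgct

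In the Polg window the wild-type summit was base 134 of the printed sequence, 12 bp before n-TRtcg5, and this Polg start lies to the left on the opposite strand. The annotated Polg gene has further starts and extends over n-TRtcg5. The peak had an enrichment value of 7.45, the seventh column of the authors' list, whose scale is not stated. In the Polr3e window the summit was base 97, 26 bp past the end of n-TLaag4 and 154 bp before the start of Polr3e. That peak had the lowest enrichment value of the 26 at tRNA genes, 3.49.

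The wild-type summits of occupied tRNA genes were divided evenly between positions inside and outside the gene. Of the 26 summits, 13 were inside, and the others lay outside, 6 beyond the lower and 7 beyond the higher coordinate. The median distance to the nearer end was 23 bp, and 24 of the 26 were within 50 bp. Part of this closeness is fixed by the rule. It counts only summits within 100 bp, and a summit inside so short a gene is always near an end. Strand is not in the annotation table, so upstream and downstream could not be told apart for most genes. In bins of 50 bp around the gene centre, the centre bin held 11 gene-summit pairs and the bins on its left and right 8 and 5, while no bin more than 125 bp away held over 3. Each of the 26 genes had a summit of its own, and each shared bases with its peak, as the 13 with the summit inside must.

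**Figure D1:**
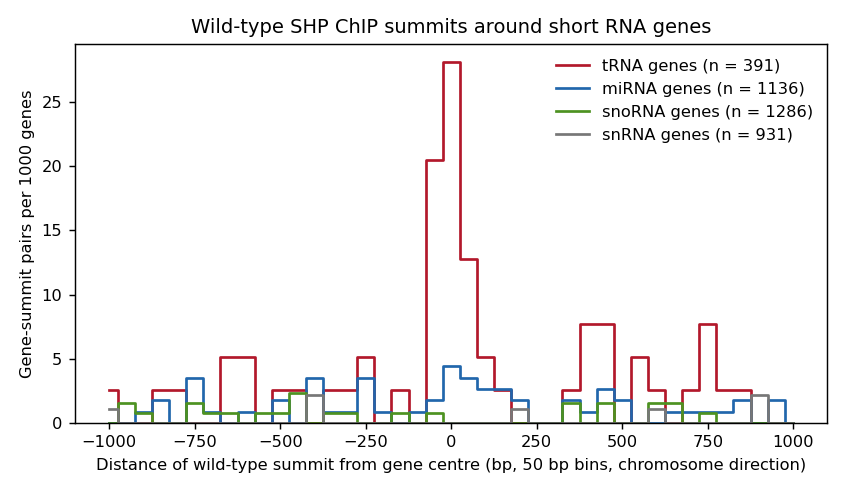
Number of pairs of a gene and a wild-type SHP summit per 1000 genes (vertical axis) by distance of the summit from the gene centre in bp (horizontal axis, 50 bp bins, in chromosome direction), for tRNA, miRNA, snoRNA and snRNA genes on chromosomes 1 to 19. The tRNA line reaches 28.1 per 1000 genes in the centre bin, and the highest bin of the miRNA line is 4.40.

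The threshold of 100 bp fell in a sparse stretch. Just inside it were n-TPagg4, with its summit 82 bp away, and n-TNgtt14, at 54 bp. Just outside were n-TGtcc1 on chromosome 1, at 102 bp with an enrichment value of 4.55, and n-TRtct2 on chromosome 3, at 123 bp with 5.48. Next came n-TTtgt3 (201 bp), n-TDgtc16 (228 bp), n-TLcaa3 (238 bp), n-TSaga9 (285 bp), n-TVcac9 (294 bp), n-TEctc5 (362 bp), n-TTagt5 (375 bp) and n-TWcca2 (386 bp). In all, 15 genes had their nearest summit over 100 and up to 500 bp away, and for 7 of them it was the summit of an occupied tRNA gene nearby. A further 16 had it up to 1000 bp away, 28 up to 5000 bp and 306 farther.

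The share of tRNA genes with a summit was near that of protein-coding genes and above that of miRNA, snoRNA and snRNA genes. Among protein-coding genes, 1422 of 20661 were occupied by the same 100 bp measure (6.88%, 95% exact interval 6.54 to 7.24). Among miRNA genes 16 of 1136 did (1.41%, 0.807 to 2.28), and among snoRNA genes, whose products guide chemical modification of other RNAs, 1 of 1286 (0.0778%, 0.00197 to 0.432). No snRNA gene of 931 did, which allows a share of up to 0.322%, and none of 61 rRNA genes, which allows up to 4.92%. Genes are not replicates, and these intervals cover counting error only.

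How the share grew with the window differed between tRNA and protein-coding genes. Within 50 bp of an end, a summit was present at 6.14% of tRNA genes and 3.30% of protein-coding genes, while within 1000 bp the shares were 14.6% and 21.8%, with 11.6% over all genes. Windows of longer genes cover more bases, because the windows at both ends of a tRNA gene of about 73 bp overlap. Per Mb of window, wild-type summits numbered 352 for tRNA genes and 160 for protein-coding genes within 50 bp, 243 and 166 within 100 bp, and 59.3 and 53.9 within 1000 bp. The tRNA figure at 50 bp rests on 24 summits in 0.0683 Mb. For protein-coding genes the windows lie at both ends of each gene, so these figures are not densities at their starts. For snoRNA genes the figure at 100 bp was 2.45 and for miRNA genes 51.96.

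**Figure D2:**
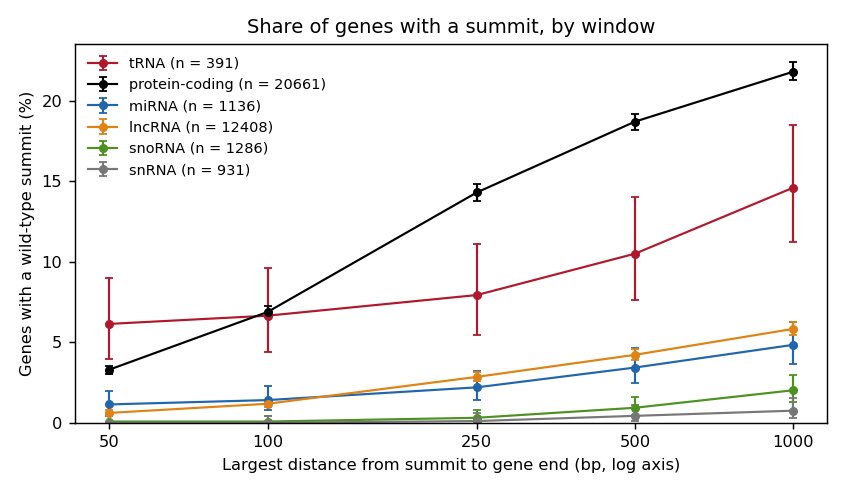
Share of genes with a wild-type SHP summit in percent (vertical axis) by the largest distance allowed from summit to gene end in bp (horizontal log axis), for 6 gene biotypes on chromosomes 1 to 19, with 95% exact binomial intervals as bars. The tRNA share runs from 6.14% at 50 bp to 14.6% at 1000 bp, and the protein-coding share from 3.30% to 21.8%.

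Occupied tRNA genes lay closer to protein-coding gene ends than the other tRNA genes, although most had no such end within 1000 bp. An end was that close at 8 of the 26 occupied genes (30.8%) and at 39 of the 365 others (10.7%), and the median distances to an end were 4346 and 11774 bp. Of the 47 tRNA genes with such a neighbour 8 were occupied (17.0%, 95% exact interval 7.65 to 30.8), and of the 344 without it 18 were (5.23%, 3.13 to 8.14). The other short genes without such a neighbour had 3 of 992 miRNA genes occupied (0.302%), 1 of 1207 snoRNA genes (0.0829%) and 0 of 899 snRNA genes, which allows up to 0.334%. Of the remaining wild-type peaks, 70.2% of 5749 had a protein-coding gene end within 1000 bp of the summit, against 30.8% of the 26 at tRNA genes.

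The 8 with such a neighbour sat beside genes of varied function. n-TIaat16 (chr7:28372999-28373093) lay 318 bp from Plekhg2, and n-TGccc7 (chr17:25875088-25875158) lay 342 bp from Mettl26. n-TRacg2 (chr9:123529425-123529497) lay 256 bp from Sacm1l, which encodes a phosphoinositide phosphatase, and n-TAagc15 (chr5:30888515-30888587) lay 52 bp from Agbl5, which encodes a tubulin deglutamylase. n-TLaag4 lay 180 bp from Polr3e. The other members, n-TIaat5, n-TScga3 and n-TGgcc5, belong to a run of tRNA genes on chromosome 11 described further on. At these genes a summit close to the tRNA gene is also close to a protein-coding gene end, and the lists cannot assign it to either.

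Of the 18 without such a neighbour, n-TAtgc9 lay inside Trim7 and n-TRtcg5 inside Polg. The distance counts only the outer ends of a gene, so the Polg start beside n-TRtcg5 in the window printed above does not enter it. The 18 also included genes far from any protein-coding gene end. n-TTcgt5 (chr16:13437323-13437394) was 19794 bp from the nearest, at Mrtfb, with an enrichment value of 6.30 and a peak of 368 bp. n-TNgtt14 (chr5:149229001-149229074) was 13567 bp from Uspl1, with a peak of 468 bp, and n-TRccg1 (chr11:107012866-107012938) was 10331 bp from 1810010H24Rik, with one of 588 bp. n-TPcgg2 (chr1:165642271-165642342) was 6603 bp from Rcsd1 and n-TTcgt3 (chr11:79704650-79704721) was 6634 bp from Rab11fip4. At all 5 the next protein-coding gene end was more than 5000 bp away. Closer to such ends were n-TIaat6 (chr12:110845338-110845411), 4376 bp from Mok, n-TQttg6 (chr11:95859172-95859243), 4316 bp from B4galnt2, and n-TEctc10 (chr11:58302177-58302248), 4809 bp from Zfp692. n-TTagt9, whose sequence is given above, was 1390 bp from Wdr88. It also reaches into the 250 bases before a start of the gene Gm38989, on the minus strand. The summit was base 203 of those 250, and the lists cannot assign it to either gene.

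The enrichment values at tRNA genes ran from 3.49 to 10.8, with a median of 5.29 over 26 peaks, against 5.65 over the 5749 other wild-type peaks. The interquartile ranges overlapped, 4.83 to 6.30 and 4.93 to 6.46. By the authors' −log10 p the order was the other way, with medians of 16.8 at tRNA genes and 14.8 elsewhere. The peaks at tRNA genes were also narrower, with a median width of 738 bp against 979 bp. Among those away from protein-coding gene ends the median width was 691 bp over 18 peaks, against 941 bp over 1714 other peaks that far from such ends. Narrower than 713 bp, the lower quartile of the whole list, were 11 of the 26 (42.3%, 95% exact interval 23.4 to 63.1) and 24.9% of the others.

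**Figure D3:**
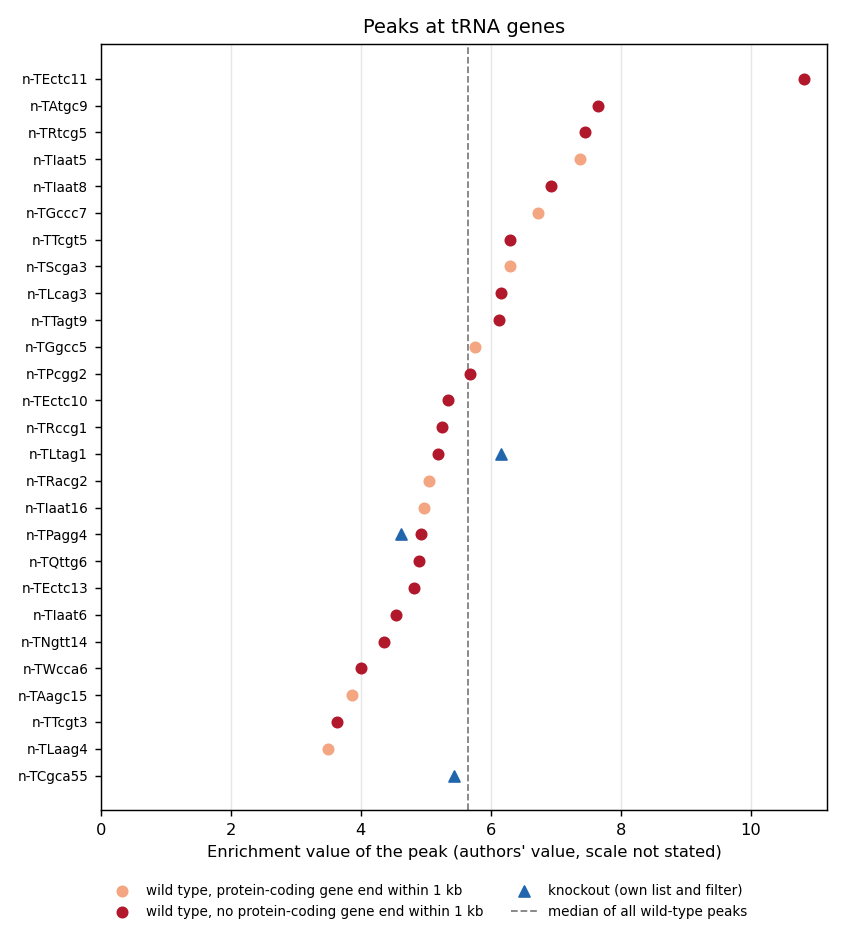
Enrichment value of the peak at each occupied tRNA gene (horizontal axis, the authors' value, scale not stated), one gene per line. Circles are wild-type peaks, coloured by whether a protein-coding gene end lies within 1 kb, triangles are knockout peaks from a list with another filter, and the dashed line is the median of all wild-type peaks, 5.65. Of the 26 circles, 12 lie right of the line.

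The strongest peak at a tRNA gene was at n-TEctc11, a glutamate tRNA gene with the anticodon CTC at chr13:21160785-21160856. Its enrichment value was 10.8, rank 14 among all 5775 wild-type peaks, and its −log10 p was 35.5. The peak was 215 bp wide with the summit inside the gene, and no protein-coding gene end lay closer than 17730 bp. It was the only peak at a tRNA gene among the 20 highest enrichment values. The other occupied CTC genes were n-TEctc10 (5.34) on chromosome 11 and n-TEctc13 (4.81) on chromosome 3, and 3 of 12 CTC genes and 0 of 8 TTC genes for glutamate were occupied.

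Several further peaks had the same narrow shape around a tRNA gene. n-TLcag3 on chromosome 1, for leucine, had the narrowest at 182 bp with an enrichment value of 6.15. n-TIaat8 in a cluster on chromosome 13 had a peak of 238 bp and 6.93, and n-TAtgc9, for alanine and inside the gene Trim7, one of 239 bp and 7.64. n-TScga3, for serine and 954 bp from the clock gene Per1, had one of 259 bp and 6.30, and n-TEctc13 one of 277 bp. With n-TEctc11 these were 6 of 167 wild-type peaks under 300 bp (3.59%, 95% exact interval 1.33 to 7.66), a width chosen after the values were seen. Over the whole list, 26 of 5775 peaks lay at tRNA genes (0.45%). The widest peaks of the 26 lay in or near protein-coding genes, 2215 bp at n-TIaat16 beside Plekhg2, 1673 bp at n-TGccc7 beside Mettl26 and 1480 bp at n-TRtcg5 in Polg.

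**Figure D4:**
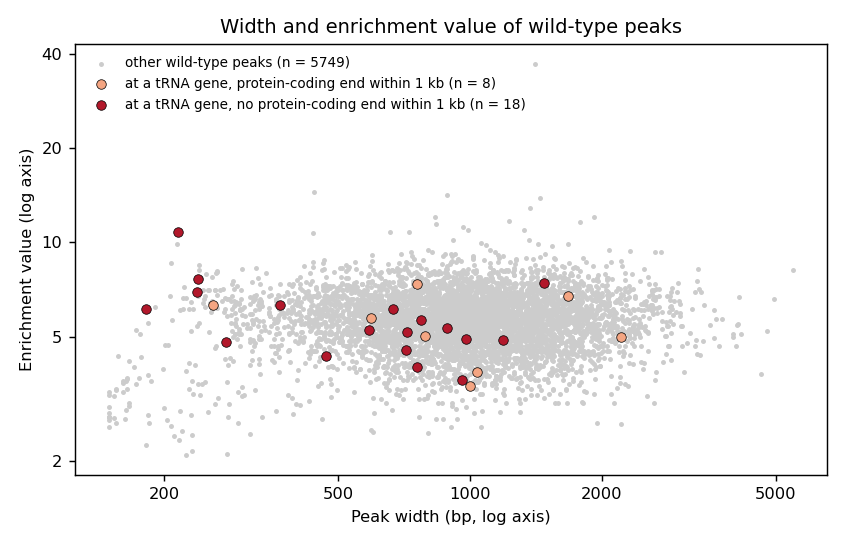
Width in bp (horizontal log axis) and enrichment value (vertical log axis) of the 5775 wild-type peaks, grey for those away from tRNA genes and coloured for the 26 at tRNA genes, by whether a protein-coding gene end lies within 1 kb. Of the coloured points, 6 are narrower than 300 bp, with enrichment values from 4.81 to 10.8.

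Occupied genes were spread over 12 of 20 amino acids and 20 of 48 anticodons. Isoleucine had the highest share, 4 of 16 genes (25%, 95% exact interval 7.27 to 52.4), all with the anticodon AAT: n-TIaat5 (7.37), n-TIaat8 (6.93), n-TIaat16 (4.98) and n-TIaat6 (4.53). Threonine had 3 of 18 (16.7%), at n-TTcgt5 (6.30), n-TTagt9 (6.12) and n-TTcgt3 (3.63). Arginine had 3 of 23 (13.0%), at n-TRtcg5, n-TRccg1 (5.25) and n-TRacg2 (5.04). The leucine genes were n-TLcag3, n-TLtag1 (5.19) and n-TLaag4, 3 of 26 (11.5%). Glutamate had 3 of 20 (15%), the CTC genes given above. The intervals of these 5 amino acids overlapped.

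The remaining amino acids had at most 2 occupied genes each. Proline had n-TPcgg2 (5.67) and n-TPagg4 (4.93) among 16 genes, glycine n-TGccc7 (6.73) and n-TGgcc5 (5.76) among 28, and alanine n-TAtgc9 and n-TAagc15 (3.86) among 21. A single gene was occupied for serine (n-TScga3, of 22), glutamine (n-TQttg6, 4.90, of 15), asparagine (n-TNgtt14, 4.35, of 13) and tryptophan (n-TWcca6, 3.99, of 8). None of the 165 genes for cysteine, lysine, valine, aspartate, methionine, histidine, tyrosine or phenylalanine had a wild-type summit. For the 57 cysteine genes that allows a share of up to 5.26% (95% exact interval 0 to 6.27), and for the 25 lysine genes up to 12%.

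**Figure D5:**
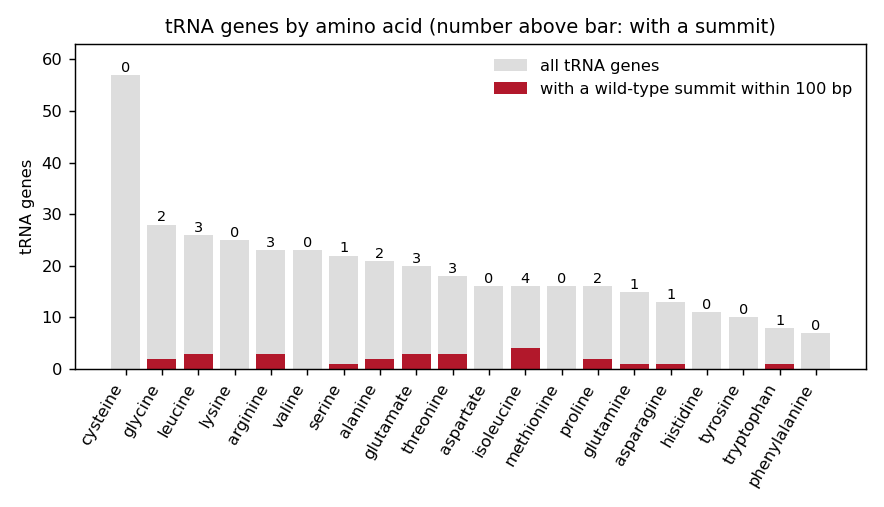
Number of tRNA genes on chromosomes 1 to 19 by amino acid (grey bars) and number of them with a wild-type SHP summit within 100 bp (red bars, number printed above each bar). Isoleucine has 4 of 16 and cysteine 0 of 57.

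Of 4 classes of gene copy number, the one with the fewest copies had the highest share occupied and the one with the most copies had none. Anticodons with 1 to 5 gene copies had 9 of 66 genes occupied (13.6%, 95% exact interval 6.43 to 24.3), those with 6 to 10 copies 7 of 134 (5.22%), those with 11 to 20 copies 10 of 111 (9.01%) and those with 21 or more 0 of 80, which allows up to 3.75%. The last class is the cysteine GCA and lysine CTT genes. Reads from near-identical copies may not be placed at a single copy, and how such reads were treated is not given in the sources used here. Its part in these counts was not tested.

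How occupancy related to clustering depended on the distance that defines a cluster. Joined wherever the gap was at most 10000 bp, the 391 genes formed 163 groups, of which 62 held 2 or more genes and the rest were single. Of the single genes, 13 were occupied (12.9%, 95% exact interval 7.04 to 21), genes in groups of 2 to 5 in 8 of 131 (6.11%, 2.67 to 11.7), those in groups of 6 to 20 in 5 of 137 (3.65%), and the 22 cysteine genes of the largest group, chr6:48244316-48317586, in none. With a neighbouring tRNA gene counted only within 1000 bp, 12 of 171 genes with one were occupied (7.02%, 3.68 to 11.9) and 14 of 220 without one (6.36%, 3.52 to 10.4). None of these differences was tested. By chromosome, 7 had 5 of 10 genes occupied (50%, 95% exact interval 18.7 to 81.3) and 11 had 9 of 52 (17.3%, 8.23 to 30.3), together 14 of the 26. Both chromosomes were named for their high counts, and the share of all genes on each was not computed. Chromosome 16 had 1 of 2. Chromosome 13, with the most tRNA genes, had 2 of 105. Chromosome 6 had 0 of 53, which allows up to 5.66% (95% exact interval 0 to 6.72). Most of these 53 are cysteine genes. The zeros for cysteine, for the highest copy number and for the largest group therefore overlap with this one.

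Chromosome 11 held a run of 18 tRNA genes among protein-coding genes (chr11:69037003-69125248, gaps up to 50000 bp), of which 4 were occupied and 14 were not. The run was singled out after its values were seen. n-TIaat5 lay 530 bp from Ctc1, which encodes a telomere maintenance protein. n-TWcca6 lay 1919 bp from Borcs6, n-TScga3 954 bp from Per1, and n-TGgcc5 (chr11:69118794-69118864) 42 bp from Hes7, a repressor of the segmentation clock. Their peaks were 758, 757, 259 and 594 bp wide. Among the 14, n-TTagt5 lay 381 bp from n-TScga3 and n-TSaga4 401 bp from n-TIaat5.

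In knockout intestine, 3 of the 7 peaks lay at tRNA genes. At n-TLtag1 (chr7:120835479-120835560) the knockout peak had an enrichment value of 6.16, the highest of its list, a width of 241 bp and its summit inside the gene, 11 bp from an end. At n-TCgca55 (chr11:97988246-97988317), a cysteine tRNA gene, the value was 5.43, the second of the list, the width 206 bp and the summit on the end base of the gene with the higher coordinate. At n-TPagg4 (chr14:51064814-51064885) the value was 4.61, the width 211 bp and the summit 22 bp outside. So all 3 were narrow, and knockout peaks elsewhere were 174 to 369 bp wide.

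Of these 3 genes, n-TLtag1 and n-TPagg4 were also occupied in wild type. Their wild-type peaks had enrichment values of 5.19 and 4.93 and widths of 719 and 978 bp, and held the whole knockout peak in each case. The summits of the 2 lists were 14 bp apart at n-TLtag1 and 60 bp apart at n-TPagg4. Such sharing was not confined to tRNA genes. The knockout peak at chr2:163644902-163645151, away from any tRNA gene, also overlapped a wild-type peak, of enrichment value 6.56, with summits 27 bp apart. The other knockout peaks away from tRNA genes overlapped none. At the tRNA gene n-TCgca55 the nearest wild-type summit was 34188 bp away. By their label, knockout mice lack the antigen. These values describe peaks called at these genes in knockout intestine, and the source of their signal was not tested. The other 24 occupied genes had no knockout peak, but a list of 7 peaks with another filter cannot show that signal was absent there. The part of antibody signal that does not need SHP in the wild-type peaks at tRNA genes was not tested, and without read counts no share can be given.

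Other genes read by RNA polymerase III had summits at a pooled share near that of all genes, in a list made up mostly of 5S ribosomal RNA genes. Of 74 such genes on chromosomes 1 to 19, 2 had a wild-type summit within 100 bp (2.70%, 95% exact interval 0.329 to 9.42, against 3.46% of all genes). Of these 74 genes, 64 encode 5S ribosomal RNA and none of them was occupied, which leaves 2 of 10 others (20%, 2.52 to 55.6). The 2 were both copies of the gene for the RNA of the signal recognition particle. At Rn7s1 the enrichment value was 8.65 with the summit 62 bp from an end, and at Rn7s2 it was 4.15 at 60 bp. Rmrp, the RNA of the RNase MRP enzyme, fell outside with a summit at 118 bp, a value of 10.7 and a width of 439 bp. Bc1, a neuronal cytoplasmic RNA, had a summit 614 bp away.

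The rest of these genes had none near. All 64 genes of 5S ribosomal RNA lay at least 3214 bp from a summit, and 42 of them are on chromosome 8. Whether the limit on reads from near-identical copies, given above for tRNA genes, applies to them was not tested. For Rpph1, the RNA of RNase P, the nearest summit was 123002 bp away, and for Rn7sk, the RNA that holds the elongation factor P-TEFb inactive, 66713 bp. For the others it was 8297 bp at Rnu6, the spliceosomal U6 RNA, 33122 and 39568 bp at the Y RNA genes Rny3 and Rny1, and 57304 bp at Vaultrc5, a vault RNA. None of 15 small nuclear RNA and telomerase RNA genes read by RNA polymerase II was within 100 bp of a summit. That count allows a share of up to 20%, against 3.46% of all genes. Within 1000 bp there were 2, Terc (176 bp) and Rnu12 (341 bp), which is 13.3%, against 11.6% of all genes. With so few genes, these counts cannot set this list apart from genes read by RNA polymerase III.

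Protein-coding genes that make and mature tRNAs had summits about as often as other protein-coding genes at 100 bp. Of 37 genes for RNA polymerase III and its factors 3 had one (8.11%, 95% exact interval 1.70 to 21.9, against 6.88% of all protein-coding genes): Polr1c (7.18) and Polr1d (6.86), subunits shared with RNA polymerase I, and Polr3d (6.52). Within 1000 bp it was 12 of 37 (32.4%, 95% exact interval 18.0 to 49.8, against 21.8%). These included Brf1, the TFIIIB subunit, with a summit at 218 bp, and Maf1, the repressor of RNA polymerase III, at 196 bp. Of 29 genes for tRNA processing and export 3 had a summit within 100 bp (10.3%). They were Rtraf (6.52), a member of the tRNA ligase complex, Tsen54 (4.81), of the splicing endonuclease, and Xpo5 (4.04), an exportin. Within 1000 bp it was 9 of 29 (31%, 95% exact interval 15.3 to 50.8, against 21.8%).

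Among the genes for tRNA modification, 3 of 55 had a summit within 100 bp (5.45%, against 6.88% of all protein-coding genes). They were Nsun2 (5.40), a cytosine methyltransferase, Thada (5.39), and Trmt112 (4.86), a cofactor of several methyltransferases. Within 1000 bp there were 15 (27.3%, 95% exact interval 16.1 to 41.0, against 21.8%). None of these 3 lists had a knockout summit within 100 bp of a member, where 0.00484% of all protein-coding genes had one. With 7 knockout peaks in all, that absence says nothing about these genes.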

How the data were processed

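SHP ChIP peaks from jejunum and ileum of wild-type and SHP-knockout mice were used as the authors deposited them, as 10-column narrowPeak lists without a header. CASAVA 1.4, BWA and mm10 stand in the submitters' processing notes. How peaks were called, with which control, and whether sets were pooled first is not given in the sources used here. Input samples were not analysed here. The deposited signal of column 7 (the enrichment value) and the deposited −log10 p and −log10 q of columns 8 and 9 described or filtered peaks within a list. The deposited score was not used further.

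Summits were set at column 2 plus column 10 plus 1, in 1-based coordinates. Genes came from a RefSeq table of GRCm38.p6, without strand or exons. Shares carry 95% exact (Clopper-Pearson) intervals. A count of 0 allows up to 3 counts of the total. Wherever this limit is given here, it lies below the upper end of the exact interval. For snRNA genes these were 0.322% and 0.395%. Intervals and limits cover counting error only, and read depth is unknown. With 1 list for each genotype there was no replicate and no test was made. Python 3.11.15 with pandas 2.3.3 and scipy 1.17.1 was used. The counting of occupied genes was tested on simulated peaks, whose summits were placed at or beyond a gene end and not inside the gene. Alternatives changed the window, the overlap, the peak threshold and the distance to protein-coding genes.

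The members and lists were chosen with earlier results of these data known. The lists of genes read by RNA polymerase III, its machinery, and tRNA processing and modification were written out by hand, and Rn7s6, Rnu6atac, Rnu1c1 and Rnu4atac were not matched. Named were all occupied tRNA genes, the 10 nearest of those over 100 and up to 500 bp from a summit, every gene of the RNA polymerase III list, and up to 4 genes of each other list by enrichment value within 100 bp. Genes named outside that rule were chosen after their values were seen: n-TAagc16, n-TSaga4, Brf1, Maf1, Terc, Rnu12, Gm38989 and the protein-coding neighbours.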

Additional observations from a re-analysis of the deposited data

How the results depend on the processing

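Of 53 alternative values over 10 results, 36 stayed within 1.5 times the reported count or within 1 SD of the reported median. Occupied tRNA genes in wild type rose from 26 to 41 within 500 bp and 57 within 1000 bp, and knockout ones from 3 to 6 within 1000 bp. With wild-type peaks at or above the 75th percentile of the enrichment value, the occupied genes and their peaks were 6, those away from protein-coding gene ends 4, and those in both genotypes 0. In both genotypes there was 1 gene within 50 bp, and farther than 5000 bp from protein-coding gene ends there were 11 occupied genes. Other genes read by RNA polymerase III numbered 0 within 50 bp, 4 within 1000 bp, and 1 under either stricter list. Within 1000 bp, the machinery genes numbered 12, and the processing and modification genes 24, against 6. The median enrichment value became 7.41 at the 75th percentile, against 7.02 for other peaks, so the order turned, and as −log10 p it was 16.8. Wider windows admit more summits and stricter lists fewer by construction. For the order of the medians the cause was not tested. No paired analysis was possible because each genotype had 1 peak list. Unknown read depth limits every statement on genes without a peak.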

Other observations

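Outside the chromosomes of the set, the 17 tRNA genes of chromosome X had no wild-type summit within 100 bp, and the nearest lay 2506821 bp away. Few peaks could lie on that chromosome, since 5735 of the 5775 wild-type peaks were on chromosomes 1 to 19. The 22 mitochondrial tRNA genes were not analysed here.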
